A study of Mus musculus with 1677 samples.

Results

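Epididymal white fat (eWAT), a visceral fat depot attached to the epididymis, was compared between mice that ate at any hour and mice that had food for part of the night. The 48 libraries of this depot were taken by their column names from a table of 1035 libraries. The labels assign 134 of the 1677 sequencing samples of the series to this depot. All mice were wild-type C57BL/6J, 10 weeks old when bought, and were kept under 12 h of light and 12 h of dark, first with chow for 2 weeks and then with a Western diet (45% fat, 17% sucrose) for 7 weeks. In the control group, called ALF for ad-libitum feeding, the Western diet was always present. In the time-restricted group, called TRF, the same diet was given for 9 h of each day, from ZT13 to ZT22, where ZT counts hours from lights on. Each group had 24 libraries, 2 at each of 12 clock times from ZT0 to ZT22, and the design asks how feeding time alters expression and its daily course. Sex was not given in the labels used here. The labels do not say that replicates were separate mice, so every p-value below measures only the spread between these libraries. Total counts ran from 10.2 to 36.5 M (M, 1000000 counts) per ALF library (median 17.6 M) and from 10.2 to 25.7 M per TRF library (median 17.7 M).

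White fat cells store fatty acids as triglyceride after a meal and release them by lipolysis in a fast, and insulin turns the balance toward storage. In obesity the epididymal depot is known for gathering macrophages around large or dying fat cells, among them lipid-laden cells that carry Trem2, Cd9 and Gpnmb. Fat cells also hold a circadian clock, a loop in which BMAL1 with CLOCK or NPAS2 switches on the Per and Cry genes, whose proteins repress them, while REV-ERB proteins repress Arntl, the gene of BMAL1. In whole tissue, fewer cells of a type and less RNA per cell cannot be told apart.

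Markers of the depot followed the tissue label. Wt1, a transcription factor of the mesothelial layer that covers visceral fat, ran from 1.10 to 23.9 CPM (counts per 1000000 counts of the library, after scaling) in the 48 epididymal libraries and reached at most 0.139 CPM in 48 libraries of inguinal fat (iWAT), a subcutaneous depot. Tbx15, a transcription factor of subcutaneous fat, reached at most 0.545 CPM in the epididymal libraries and ran from 14.01 to 100.5 CPM in the inguinal ones. Over the whole profile, each of the 48 epididymal libraries lay nearest to the mean of its own depot. Of the 24 inguinal ALF libraries 7 lay nearest to the epididymal mean, and the number of genes that differed between the depots is therefore also given without them.

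Several libraries stood apart and are named before the results. The first principal component held 46.4% of the variance and largely followed feeding: the median score was -49.5 and -31.7 for ALF replicates 1 and 2, and 40.5 and 32.9 for TRF replicates 1 and 2. With the midpoint at -1.89, 1 TRF library lay on the ALF side and 6 ALF libraries lay on the TRF side, 5 of them from ZT8 to ZT14. The library labelled TRF ZT10 replicate 1 had a score of -66.6 and the library labelled ALF ZT10 replicate 2 had 35.9. On a scale shared by both depots, the serotonin synthesis gene Tph2 was at 300.3 CPM in that TRF library and at 0.920 CPM in that ALF library, while the other TRF libraries apart from ZT10 ran from 0.103 to 8.53 CPM and the other ALF libraries from 1.03 to 186.4 CPM. Inguinal libraries with the same labels lay with their own groups: their scores on the inguinal first component were 66.5 for TRF ZT10 replicate 1 and -98.8 for ALF ZT10 replicate 2. Tph2 stood at 0.472 and 177 CPM in them and Lep at 161.6 and 6428 CPM. Further ALF libraries with high epididymal scores were replicate 2 at ZT12 (38.8), ZT8 (27.1) and ZT14 (27.2), and Tph2 ran from 0.982 to 2.02 CPM in these 3 on the scale of the epididymal fit.

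**Figure D1:**
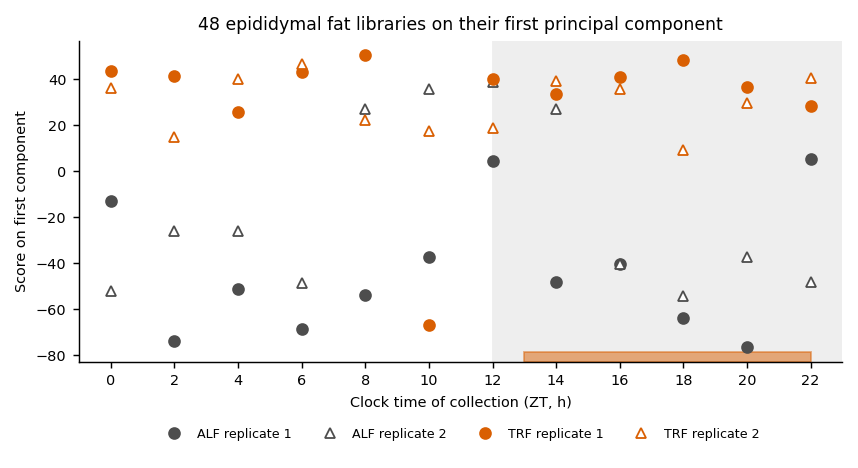
Score of each of the 48 epididymal fat libraries on the first principal component (vertical axis, arbitrary units) against clock time in h; colour is the feeding group, symbol the replicate number, grey the dark phase and the orange bar the hours with food for TRF. The TRF library at ZT10 with a score of -66.6 and the ALF library at ZT10 with 35.9 lie among points of the other colour, as does the ALF library at ZT12 with 38.8.

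RNA of the epididymal duct was high, with a list sum over 100 CPM, in 2 libraries. On the same shared scale, a list of 16 epididymis and testis genes summed to 7073 CPM in the library labelled TRF ZT6 replicate 2, of which the secreted protein gene Crisp1 gave 5784 CPM, and to 417.3 CPM in TRF ZT8 replicate 1. The sum was at most 25.9 CPM in the other libraries. Some of these held epididymal genes at lower levels, for example Adam7 at 16.8 CPM in TRF ZT8 replicate 2 and 9.58 CPM in ALF ZT18 replicate 2. The library labelled ALF ZT14 replicate 2 had 266 CPM of the epithelial gene Tspan8, against at most 3.96 CPM elsewhere, and 324.9 CPM of the smooth muscle gene Cnn1, against at most 27.4 CPM. Counts and values below are given with all 48 libraries, and again without these 5 libraries where that changed a call. This setting was chosen after seeing the data. The 2 ZT10 libraries in it resembled the other feeding group, so leaving them out enlarges mean differences by selection. Larger differences or more calls without the 5 are therefore no independent support. The ALF libraries at ZT8 and ZT12 with high scores were kept.

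The mean level over all 12 clock times differed for most genes. Of 14132 genes tested with clock time as a factor (edgeR quasi-likelihood test, Benjamini-Hochberg adjustment over all of them, threshold 0.05), 30.9% were higher and 29.1% lower in TRF. A log2 difference of at least 0.5 was reached by 1324 of the genes that were higher and by 1521 of those that were lower. The median over all genes tested was 0.012 on the log2 scale. The number of genes called, 8470 with all libraries, was 9281 without the 5 libraries named above, 7563 without replicate 2 and 2464 without replicate 1. With background shares this high, a count of called genes in a list is read together with the list's median difference. Differences are TRF minus ALF with n = 24 libraries per group, ± gives their standard error, and adjusted p-values come from this edgeR test.

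Genes that define fat cells were mostly higher under TRF. Of 18 adipocyte markers 14 rose and 1 fell, with a median log2 difference of 0.45 (0.55 without the 5 libraries). Cfd, which encodes the secreted protease adipsin, ran from 227.4 through a median of 772 to 9717 CPM in ALF and from 314.7 through 6591 to 11260 CPM in TRF. The log2 difference was 2.49 ± 0.41 (edgeR adjusted p = 7.2e-06), and although the medians were far apart the ranges overlapped, with 5 TRF libraries above every ALF library. Adipoq, the gene of adiponectin, ran from 1633 through 3429 to 5851 CPM in ALF and from 2077 through 4806 to 6362 CPM in TRF, a log2 difference of 0.44 ± 0.11 (edgeR adjusted p = 0.0012). Lep, which encodes the satiety hormone leptin, was the 1 marker that fell. It ran from 1071 through 6469 to 8757 CPM in ALF and from 150.2 through 2507 to 7930 CPM in TRF, a log2 difference of -1.34 ± 0.28 (edgeR adjusted p = 0.00015). The ranges overlapped, with 6 TRF libraries below the ALF minimum and 2 ALF libraries above the TRF maximum. That ALF minimum was the library ALF ZT10 replicate 2, and the next ALF library for Lep stood at 1933 CPM. Adipokines and genes of fat expansion were mixed as a list, with 8 higher and 5 lower of 22 (median -0.12). Among those that rose were Retn (resistin) by 1.00 ± 0.21 and Nrg4 (a growth factor of the EGF family) by 0.98 ± 0.18. Vegfa (a signal for vessel growth) rose by 0.58 ± 0.11 on the log2 scale, and 12 ALF libraries lay below every TRF library for it.

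Enzymes that build fatty acids showed one of the largest positive list medians, 0.72, with 17 of 21 genes higher and 2 lower (18 and 3 of 21 without the 5 libraries). Acacb, an acetyl-CoA carboxylase (chr5:114146535-114250761, plus strand, GRCm38), ran from 39.5 through 70.2 to 404.8 CPM in ALF and from 47.3 through 456 to 1104 CPM in TRF. Its log2 difference was 2.05 ± 0.30 (edgeR adjusted p = 2.3e-06) and 13 of 24 TRF libraries exceeded all ALF libraries. Fasn, the fatty acid synthase, ran from 1113 through 2751 to 4463 CPM in ALF and from 699.4 through 5539 to 13560 CPM in TRF. It was higher in TRF at all 12 clock times (0.94 ± 0.18, edgeR adjusted p = 4.0e-05), and 15 TRF libraries lay above the ALF maximum. Acaca, the other acetyl-CoA carboxylase gene, rose by 1.31 ± 0.21, Tkt, a transketolase of the pentose phosphate pathway, by 0.79 ± 0.12, and Thrsp, a regulator of lipogenesis, by 1.12 ± 0.27. Pnpla3, a lipid droplet hydrolase in this list, differed by 0.23 ± 0.13 and did not pass with all libraries (edgeR adjusted p = 0.11). Without the 5 libraries all 21 genes of the list passed, Pnpla3 among them.

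**Figure D2:**
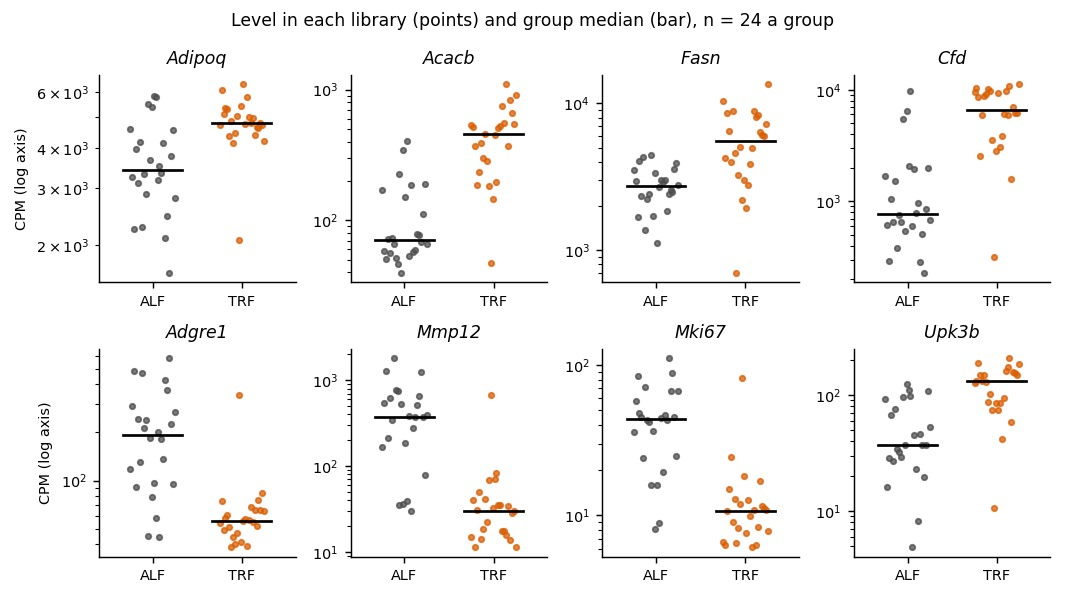
Level of 8 genes in CPM (log axis) in each of the 24 ALF and 24 TRF libraries of epididymal fat (points) with the group median (bar). TRF medians are higher for the fat cell and synthesis genes and for Upk3b, for example 456 against 70.2 CPM for Acacb, and lower for Adgre1, Mmp12 and Mki67, while single points of each group reach into the range of the other.

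Genes of triglyceride storage and of lipolysis, opposite arms of fat handling, were both higher. Of 20 genes of triglyceride synthesis and droplets 13 rose and 3 fell (median 0.42), and of 17 genes of lipolysis and its control 13 rose and 1 fell (median 0.50). Plin5, a droplet protein that links droplets to mitochondria, ran from 4.66 through 9.89 to 21.2 CPM in ALF and from 9.71 through 20.4 to 30.1 CPM in TRF (1.03 ± 0.15, edgeR adjusted p = 2.4e-06). It was higher at all 12 clock times, with 11 ALF libraries below and 11 TRF libraries above the other group. Mogat1, which acylates monoacylglycerol, rose by 1.33 ± 0.22, and Agpat3, an acyltransferase, by 0.38 ± 0.06. On the side of lipolysis, Pnpla2, the first triglyceride lipase, had medians of 1195 CPM in ALF and 2510 CPM in TRF and rose by 0.82 ± 0.14. Adrb3, the adrenergic receptor that starts lipolysis, rose by 1.28 ± 0.26, Npr1, a natriuretic peptide receptor, by 0.43 ± 0.07, and Pde3b, the phosphodiesterase through which insulin curbs lipolysis, by 0.71 ± 0.14. Of 18 insulin signalling genes 10 rose and 1 fell (median 0.32), and without replicate 1 only 1 rose. The insulin receptor gene Insr rose by 0.42 ± 0.08 and Akt2, a kinase downstream of it, by 0.38 ± 0.08, while Grb14, an adaptor that inhibits the receptor, fell by 0.69 ± 0.12 on the log2 scale. The lists of lipoprotein lipase with fatty acid uptake (5 of 13 up, 3 down, median 0.10) and of glucose uptake with glycolysis (10 of 24 up, 6 down, median 0.06) lay near the median of all genes.

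Nuclear genes of mitochondrial fuel use rose as groups of small, even differences. In the respiratory chain list 29 of 30 genes rose and none fell, with log2 differences from 0.14 to 0.57 and a median of 0.38. Cox5b, a subunit of cytochrome c oxidase, ran from 38.4 through 52.1 to 73.9 CPM in ALF and from 44.05 through 77.3 to 102 CPM in TRF (0.52 ± 0.07, edgeR adjusted p = 9.6e-07), and 15 TRF libraries exceeded the ALF maximum. Cycs, the electron carrier cytochrome c, was the 1 member that did not pass (0.14 ± 0.07, edgeR adjusted p = 0.11). Of 22 genes that break down branched-chain amino acids 21 rose and none fell (median 0.51): Ivd, a dehydrogenase of the leucine pathway, rose by 0.89 ± 0.14 and Bckdha, a subunit of the complex that commits these amino acids to breakdown, by 0.68 ± 0.11. The tricarboxylic acid cycle had 17 of 18 genes higher and 1 lower (median 0.35), with Suclg2 at 0.67 ± 0.10, and beta-oxidation had 14 of 20 higher and 1 lower (median 0.24). Eci1, an isomerase of beta-oxidation, rose by 0.73 ± 0.10 and the carnitine carrier Slc25a20 by 0.30 ± 0.04, whereas Acaa2, the thiolase, differed by 0.06 ± 0.04 (edgeR adjusted p = 0.25). Without replicate 1 the counts of genes that rose were 13 of 30 for the respiratory chain, 12 of 22 for branched-chain amino acids, 5 of 21 for fatty acid synthesis and 7 of 18 for adipocyte markers. The medians then were 0.28, 0.37, 0.54 and 0.39.

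Macrophage genes were lower under TRF, both general markers and those of lipid-associated cells. Of 14 general macrophage markers 12 fell and 1 rose (median -1.07, and -1.27 without the 5 libraries). Of 19 genes of lipid-associated macrophages 17 fell and 2 rose (median -1.88, and -2.095 without the 5). Adgre1, which encodes the macrophage surface protein F4/80 (chr17:57358691-57483527, plus strand, GRCm38), ran from 44.7 through 192.1 to 579.1 CPM in ALF and from 38.3 through 56.2 to 343.9 CPM in TRF, a log2 difference of -1.66 ± 0.26 (edgeR adjusted p = 4.1e-06). Mmp12, a macrophage elastase (chr9:7344381-7369499, plus strand, GRCm38), ran from 29.9 through 376.8 to 1804 CPM in ALF and from 11.3 through 30.1 to 678.4 CPM in TRF, a difference of -3.59 ± 0.50 (edgeR adjusted p = 1.3e-06). The ranges overlapped for both genes: 5 ALF libraries lay above the TRF maximum in each case, and 5 TRF libraries for Adgre1 and 12 for Mmp12 lay below the ALF minimum. The TRF maximum of both was in the library labelled TRF ZT10 replicate 1, and without the 5 libraries the differences were -1.89 for Adgre1 and -3.93 for Mmp12. Itgax (CD11c) fell by 2.84 ± 0.40, the lysosomal protease gene Ctss by 2.25 ± 0.29 and Atp6v0d2, a subunit of the proton pump, by 3.46 ± 0.52 on the log2 scale. Apoe, which fat cells also express, was 1 of the 2 genes that rose in this list (0.99 ± 0.13). Cd14, a receptor for bacterial lipopolysaccharide, did not pass in the general list (-0.15 ± 0.13, edgeR adjusted p = 0.36).

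Markers of resident macrophages did not share that direction. Of 11 such genes 5 rose and 3 fell, with a median of 0.11. The mannose receptor gene Mrc1 fell by 0.54 ± 0.11, while Timd4, a receptor for dying cells, rose by 0.86 ± 0.17, Cd209f, a lectin, by 0.53 ± 0.12, and Lyve1, which lymphatic vessels share, by 0.57 ± 0.15. Timd4 had medians of 3.07 CPM in ALF and 6.66 CPM in TRF, a low level in both groups. Of 23 chemokines and cytokines 19 fell and 1 rose (median -1.42). Ccl2, the signal that draws monocytes, had medians of 71.1 CPM in ALF and 7.93 CPM in TRF and fell by 2.98 ± 0.39, with 11 ALF libraries above every TRF library. Ccl7 fell by 2.80 ± 0.36, and the receptor gene Ccr2 by 1.42 ± 0.17. Antigen presentation through MHC class II had 9 of 10 genes lower and none higher (median -1.04): Cd74, the invariant chain, fell by 1.02 ± 0.14, and H2-DMb2 did not pass (-0.30 ± 0.14, edgeR adjusted p = 0.065). T, B and NK cell markers were low, with a sum over the list of 31.2 to 73.4 CPM in ALF and 21.3 to 64.2 CPM in TRF, and 2 rose and 6 fell of 19 (median -0.17). Among granulocyte and mast cell genes 6 rose and 3 fell of 11: the mast cell tryptase Tpsb2 rose by 0.72 ± 0.13, and S100a8, which neutrophils carry, fell by 1.97 ± 0.36. Interferon-stimulated genes were split, with 8 higher and 5 lower of 24 (median 0.08). Irf7 rose by 0.57 ± 0.09 and Mx1 fell by 0.56 ± 0.13.

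**Figure D3:**
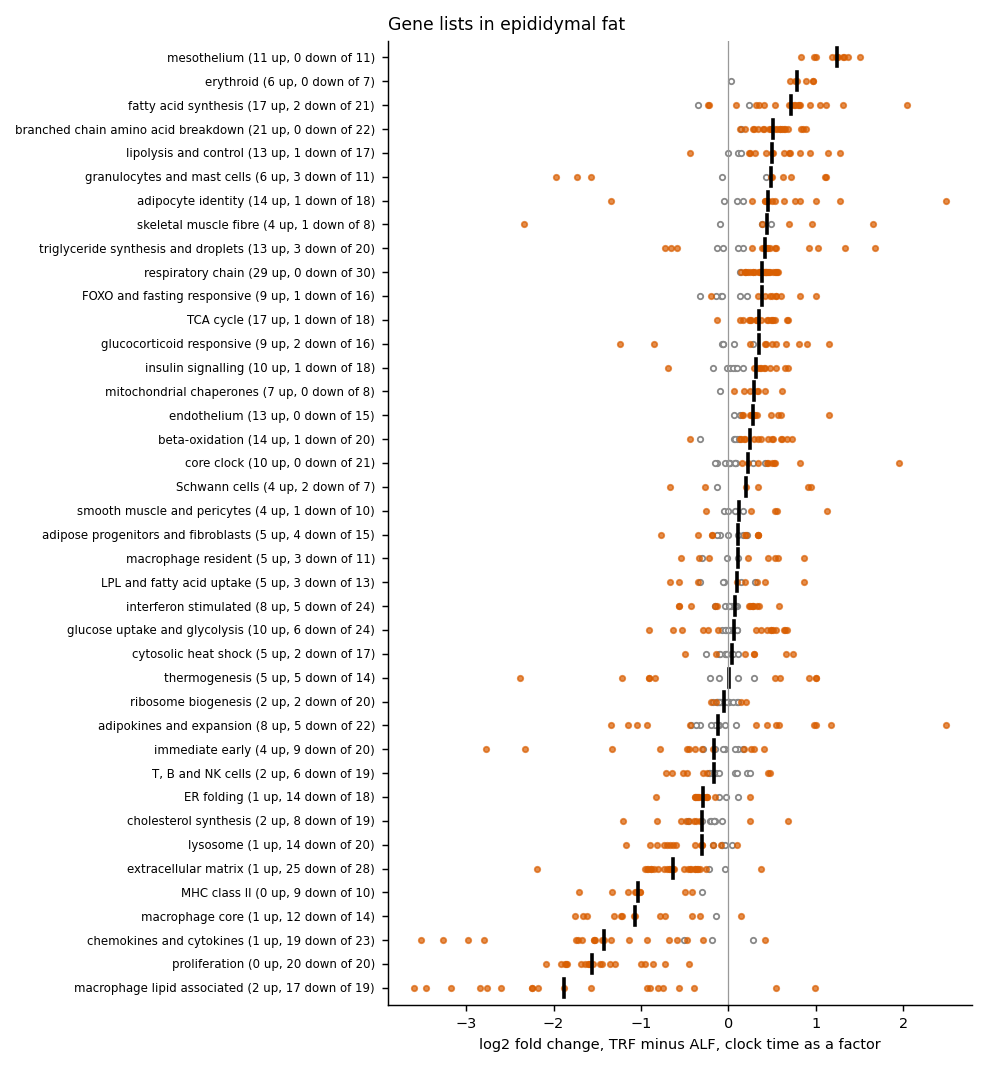
Log2 difference of each member (points, filled where the adjusted p was under 0.05) of the gene lists with at least 5 genes tested, TRF minus ALF in epididymal fat, with the list median as a bar. The medians run from -1.88 for lipid-associated macrophage genes to 1.25 for mesothelial genes.

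The genes of cell division and of the matrix fell with the macrophage genes. All 20 proliferation genes fell (median -1.57, and -1.81 without the 5 libraries). Mki67, present in dividing cells, ran from 8.09 through 43.9 to 111 CPM in ALF and from 6.13 through 10.8 to 82.0 CPM in TRF (-1.85 ± 0.26, edgeR adjusted p = 1.7e-06). The low TRF median and the 7 TRF libraries below the ALF minimum stood beside a TRF maximum inside the ALF range. Of 28 matrix genes 25 fell and 1 rose (median -0.63): Col6a3, a chain of collagen VI, fell by 0.80 ± 0.13, fibronectin (Fn1) by 0.67 ± 0.11, Postn, the matrix protein periostin, by 0.93 ± 0.15 and Lum, a proteoglycan of collagen fibrils, by 0.89 ± 0.15. Without replicate 1, 8 of 28 matrix genes and 19 of 20 proliferation genes fell. Among genes of hormonal and nutritional state, 9 of 16 glucocorticoid-responsive genes rose and 2 fell (median 0.35), 9 of 16 FOXO and fasting genes rose and 1 fell (median 0.38), and 4 of 20 immediate early genes rose and 9 fell (median -0.16). Lysosomal genes fell in 14 of 20 cases and rose in 1 (median -0.31), with Gusb, a glucuronidase, at -1.17 ± 0.17 and Psap, a saposin precursor, at -0.90 ± 0.15. Chaperones of the endoplasmic reticulum fell in 14 of 18 cases (2 without replicate 1) and rose in 1 (median -0.29), with Sdf2l1 at -0.83 ± 0.15 and Sel1l at -0.37 ± 0.05. Cholesterol synthesis had 8 genes lower and 2 higher of 19 (median -0.30), and without replicate 1 none passed in either direction (median -0.15). Fdft1, the squalene synthase, was 1 of the 2 that rose (0.68 ± 0.16), and Mvk, the mevalonate kinase, did not pass (-0.07 ± 0.08, edgeR adjusted p = 0.45).

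Markers of the cells that line the depot and its vessels were higher. All 11 mesothelial genes rose (median 1.25, and 1.46 without the 5 libraries). Upk3b, a membrane protein of the mesothelium (chr5:136038496-136046487, plus strand, GRCm38), ran from 4.86 through 37.2 to 124.7 CPM in ALF and from 10.5 through 131.3 to 208.3 CPM in TRF, a log2 difference of 1.31 ± 0.29 (edgeR adjusted p = 0.00022). Of the TRF libraries 14 lay above every ALF library. Wt1 rose by 1.00 ± 0.18 and Nkain4 by 1.25 ± 0.23. Of 15 endothelial genes 13 rose and none fell (median 0.28), with the clotting factor Vwf at 0.61 ± 0.10 and the VEGF receptor Flt1 at 0.30 ± 0.06, and Cdh5, the cadherin of endothelial junctions, did not pass (0.06 ± 0.07, edgeR adjusted p = 0.41). Erythroid genes rose in 6 of 7 cases (median 0.79), but in 0 without replicate 1 (median 0.59). Hba-a1 rose by 0.97 ± 0.19, a gene with a near-identical copy whose reads may be divided between them. Genes of fat cell progenitors and fibroblasts were mixed (5 up, 4 down of 15, median 0.11), as were smooth muscle genes (4 up, 1 down of 10, median 0.12), Schwann cell genes (4 up, 2 down of 7) and skeletal muscle genes (4 up, 1 down of 8). Of the pancreatic list, Cela1 alone passed the filter on low counts, and it fell by 1.30 ± 0.21. The other pancreatic enzymes reached at most 0.348 CPM in any library (Cpa1). The mesothelial, endothelial and erythroid sums moved with the fat cell genes and against the macrophage genes: the mesothelial sum ran from 32.6 through 134 to 483.6 CPM in ALF and from 45.9 through 415.8 to 607.3 CPM in TRF, and the general macrophage sum from 1371 through 4120 to 8733 CPM and from 1490 through 1881 to 6204 CPM. The part of tissue composition in the other results was not tested.

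Among single genes with a mean of at least 5 CPM, the largest rise was that of Serpina3k, a serine protease inhibitor from a family of close copies, whose reads may be divided between them. It ran from 1.02 through 2.19 to 30.8 CPM in ALF and from 2.89 through 28.9 to 97.1 CPM in TRF (3.12 ± 0.44, edgeR adjusted p = 1.4e-06), and 17 ALF libraries lay below every TRF library. Acsm3, an acyl-CoA synthetase, rose by 2.66 ± 0.51, Cyp2e1, a cytochrome P450, by 2.45 ± 0.42 and Vnn1, a pantetheinase, by 2.31 ± 0.34. Fam13a, which human studies link to fat distribution, rose by 2.14 ± 0.35. The largest fall was that of Gpr50, an orphan receptor related to melatonin receptors. It ran from 0 through 34.1 to 74.9 CPM in ALF and from 0 through 0.165 to 72.9 CPM in TRF (-5.17 ± 0.76, edgeR adjusted p = 1.8e-06). The high TRF value belonged to ZT10 replicate 1, and the log2 difference without the 5 libraries was -5.92. Itgad, an integrin of macrophages, fell by 4.31 ± 0.63, Ubd, a ubiquitin-like protein, by 4.16 ± 0.55, Trdn, the muscle protein triadin, by 3.86 ± 0.58, Rgs1, a regulator of G-protein signalling in immune cells, by 3.65 ± 0.51 and F7, clotting factor VII, by 3.56 ± 0.46 on the log2 scale. Of these genes Itgad, Ubd, Trdn, Rgs1 and F7 were lower in TRF at 11 of 12 clock times, and ZT10 was the remaining one.

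The feeding difference was then split by whether TRF mice had food. The libraries with food all came from the dark phase, so food, darkness and clock time cannot be told apart in this split. In the fasting hours (ZT0 to ZT12, 14 libraries per group) 2926 genes were higher and 3007 lower in TRF, and in the hours with food (ZT14 to ZT22, 10 libraries per group) 3399 were higher and 3559 lower. The difference between the windows itself passed for 345 genes: 1.85% of all genes tested had a more positive and 0.594% a more negative feeding difference while food was present. This count rested on many libraries at once. It was 4 without replicate 1 and 0 without replicate 2 in the edgeR test, where 1637 and 990 genes had an unadjusted p under 0.05, and leaving out single clock times gave 128 (ZT4), 199 (ZT6), 141 (ZT8), 526 (ZT10), 584 (ZT14), 75 (ZT16) and 58 (ZT18). Without replicate 2 none of the 28 genes selected for this difference passed, and without replicate 1 only Hk2 did (edgeR adjusted p = 0.015). Leaving out the 2 libraries with high epididymal RNA gave 204 genes, leaving out ALF ZT14 replicate 2 gave 549, and leaving out all 5 gave 487.

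Among genes with a mean of at least 5 CPM, the largest difference between the windows was that of Angptl8, a secreted inhibitor of lipoprotein lipase that insulin induces (chr9:21835510-21837347, plus strand, GRCm38). In the fasting hours it ran from 5.61 through 19.9 to 84.1 CPM in ALF and from 3.59 through 11.8 to 28.1 CPM in TRF, a log2 difference of -0.83 ± 0.34 (edgeR adjusted p = 0.048). In the hours with food it ran from 18.2 through 31.5 to 39.7 CPM in ALF and from 23.8 through 115 to 256.2 CPM in TRF, a difference of 1.79 ± 0.39 (edgeR adjusted p = 0.0004). The sign thus differed between the windows, and the window difference was 2.62 ± 0.52 (edgeR adjusted p = 0.0052, and 0.0036 without the 5 libraries). Ppp1r3b, a subunit that directs phosphatase to glycogen, showed the same change of sign: -0.80 ± 0.28 in the fast and 1.77 ± 0.33 with food, with a window difference of 2.57 ± 0.43 (edgeR adjusted p = 0.0015). Its TRF libraries ran from 7.55 through 15.3 to 33.3 CPM in the fast and from 36.3 through 93.9 to 227.7 CPM with food, so that these ranges did not overlap. Usp2, a deubiquitinase with a daily rhythm, differed by 0.02 ± 0.21 in the fast and 1.91 ± 0.26 with food, and Axin2, a feedback inhibitor of Wnt signalling, by 0.23 ± 0.23 and 2.01 ± 0.29. The most negative window differences were those of Nek2, a mitotic kinase (-1.47 ± 0.38), Slc5a3, an inositol transporter (-1.27 ± 0.25), Ptger2, a prostaglandin E receptor (-1.16 ± 0.25), and Sgms2, a sphingomyelin synthase (-1.13 ± 0.27, and -0.68 without the 5 libraries).

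Lipid genes supplied several of the positive window differences. Among fatty acid synthesis genes 3 of 21 passed, all positive, and among triglyceride and droplet genes 4 of 20. Aacs, which returns ketone bodies to lipid synthesis, differed by 0.46 ± 0.21 in the fast and 1.87 ± 0.26 with food (window difference 1.41 ± 0.33, edgeR adjusted p = 0.017). G0s2, an inhibitor of the lipase ATGL, differed by 0.20 ± 0.14 and 1.24 ± 0.17, Hk2, the insulin-induced hexokinase, by -0.08 ± 0.12 and 1.01 ± 0.14, and Pparg, the main transcription factor of fat cells, by -0.23 ± 0.11 and 0.56 ± 0.13. Plin5 was higher in both windows but more so with food (0.58 ± 0.16 and 1.68 ± 0.20, edgeR adjusted p of the window difference 0.016). Of insulin signalling genes 2 of 18 passed: Akt2 (0.15 ± 0.09 and 0.70 ± 0.10) and Pik3r1, a subunit of PI3-kinase (0.18 ± 0.20 and 1.27 ± 0.23). Cholesterol genes gave 3 of 19, among them Fdft1 (0.13 ± 0.15 and 1.45 ± 0.18). Ribosome biogenesis gave 5 of 20, all positive and small: Nop56 differed by -0.20 ± 0.08 in the fast and 0.29 ± 0.09 with food, and Gnl3 by -0.33 ± 0.08 and 0.16 ± 0.10.

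A 24-h rhythm, tested with a cosine and a sine in each group, was called for 9.93% of all genes in ALF and for 31.4% in TRF, and it differed between the groups for 12.2%. As numbers these were 1403, 4433 and 1726 genes, with 642 rhythmic in both groups. The amplitude was larger in TRF for 1308 of the 1726 genes and larger in ALF for 418, but without replicate 1 it was larger in TRF for 312 and in ALF for 392. Median log2 amplitudes of the rhythmic genes, from mean to peak, were 0.30 in ALF and 0.28 in TRF. In ALF 43.3% of the rhythmic genes peaked from ZT6 to ZT12 and 12.1% from ZT0 to ZT6, while 20.6% to 28.1% of the TRF genes fell into each 6-h stretch of the day. Of the 6 ALF libraries on the TRF side 5 were from ZT8 to ZT14, and with the first principal component as a term ALF gave 776 rhythmic genes, 556 of them among the 1403. Of genes rhythmic in both groups the peak moved by a median of -0.31 h in TRF, with an interquartile range from -2.60 to 1.96 h. The counts depended on which libraries were used. ALF gave 3099 rhythmic genes without replicate 1 and 20 without replicate 2, and 931, 772, 665, 863 and 624 without ZT2, ZT4, ZT12, ZT18 and ZT20. TRF gave 1410 and 1356 without replicates 1 and 2. The number of differing rhythms was 704 and 29 without replicates 1 and 2, and 961, 1095, 955 and 1066 without ZT4, ZT12, ZT18 and ZT20. Without all 5 libraries the counts were 834 in ALF, 4688 in TRF and 1388 differing.

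Most clock genes were rhythmic in both groups. Of 21 core clock genes 17 were rhythmic in ALF and 20 in TRF, and 6 differed between the groups (15, 18 and 10 without the 5 libraries). Of the activators, Arntl had a log2 amplitude of 1.68 ± 0.17 with a peak at 1.5 h in ALF and 2.37 ± 0.17 with a peak at 1.3 h in TRF, and this difference did not pass (edgeR adjusted p = 0.10) except without the 5 libraries (0.0099). Npas2, the partner of BMAL1 that can replace CLOCK, had 8.54 and 6.77 CPM at ZT0 and 1.11 and 0.982 CPM at ZT14 in ALF, and 20.1 and 20.2 CPM at ZT4 and 0.425 and 0.477 CPM at ZT14 in TRF. Its TRF libraries thus climbed higher in the light phase and dropped lower after dark. The amplitude rose from 1.67 ± 0.17 to 2.75 ± 0.17 and the peak was at 2.0 ± 0.4 h in ALF and 2.9 ± 0.2 h in TRF (edgeR adjusted p of the difference 0.00092). Clock itself was shallow, with amplitudes of 0.32 ± 0.06 and 0.47 ± 0.06 (edgeR adjusted p = 0.078).

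Of the repressors, Nr1d1, which encodes REV-ERB alpha, had amplitudes of 1.73 ± 0.15 in ALF and 2.48 ± 0.15 in TRF with peaks at 10.4 and 10.1 h (edgeR adjusted p of the difference 0.017). At ZT6 it stood at 64.8 and 83.8 CPM in ALF and at 270.8 and 213.4 CPM in TRF, while at ZT22 it stood at 17.8 and 17.3 CPM in ALF and 9.72 and 10.2 CPM in TRF. Ciart, a repressor of BMAL1 with CLOCK, had amplitudes of 1.70 ± 0.21 and 2.75 ± 0.21 (edgeR adjusted p = 0.011). Of the DEC repressors, Bhlhe40 had an amplitude of 0.53 ± 0.14 with a peak at 8.1 ± 1.0 h in ALF and of 1.52 ± 0.14 with a peak at 14.6 ± 0.4 h in TRF (edgeR adjusted p = 1.7e-05). The ALF rhythm of Bhlhe40 did not pass in 11 of 25 other settings, and its highest ALF value, 128.6 CPM, was in ALF ZT10 replicate 2. From ZT0 to ZT6 it ran from 27.7 to 94.0 CPM in ALF and from 15.7 to 23.3 CPM in TRF, which do not overlap, and at ZT14 it stood at 53.6 and 60.9 CPM in ALF and 138.6 and 284.5 CPM in TRF. Bhlhe41 went from 0.60 ± 0.12 with a peak at 11.1 h to 1.35 ± 0.12 with a peak at 13.8 h (edgeR adjusted p = 0.0018). Per1, Per2 and Per3 had amplitudes of 0.66, 1.35 and 1.21 in ALF and 0.97, 1.98 and 1.36 in TRF, and none of these differences passed (edgeR adjusted p = 0.44, 0.15 and 0.53). Cry1 reached 0.67 ± 0.09 and 1.10 ± 0.09 with peaks at 20.9 and 21.0 h (edgeR adjusted p = 0.064).

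Of the output factors, Dbp had amplitudes of 1.90 ± 0.15 with a peak at 12.8 ± 0.3 h in ALF and 2.54 ± 0.15 with a peak at 13.7 ± 0.2 h in TRF (edgeR adjusted p = 0.035). Tef and Hlf, its relatives, peaked at 13.8 h each in ALF and at 15.0 and 15.8 h in TRF, and Nfil3, the repressor that binds the same D-box, at 0.0 h in ALF and 21.5 h in TRF. These differences did not pass (edgeR adjusted p = 0.067, 0.075 and 0.059), with Nfil3 at 0.0082 without the 5 libraries. As means over the day, 10 of 21 clock genes were higher in TRF and none lower (median 0.23): Hlf by 0.82 ± 0.17, Cry1 by 0.54 ± 0.09 and Per1 by 0.50 ± 0.13. In the window test 5 clock genes had a positive difference and 1 a negative one. Bhlhe40 was the largest, at -0.80 ± 0.24 in the fast and 1.08 ± 0.27 with food, and Npas2 was the negative one (0.83 ± 0.20 and -0.45 ± 0.30). Without the 5 libraries the window test was lost for Npas2 (edgeR adjusted p = 0.057), Per2 (0.062), Bhlhe41 (0.063) and Dbp (0.11).

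**Figure D4:**
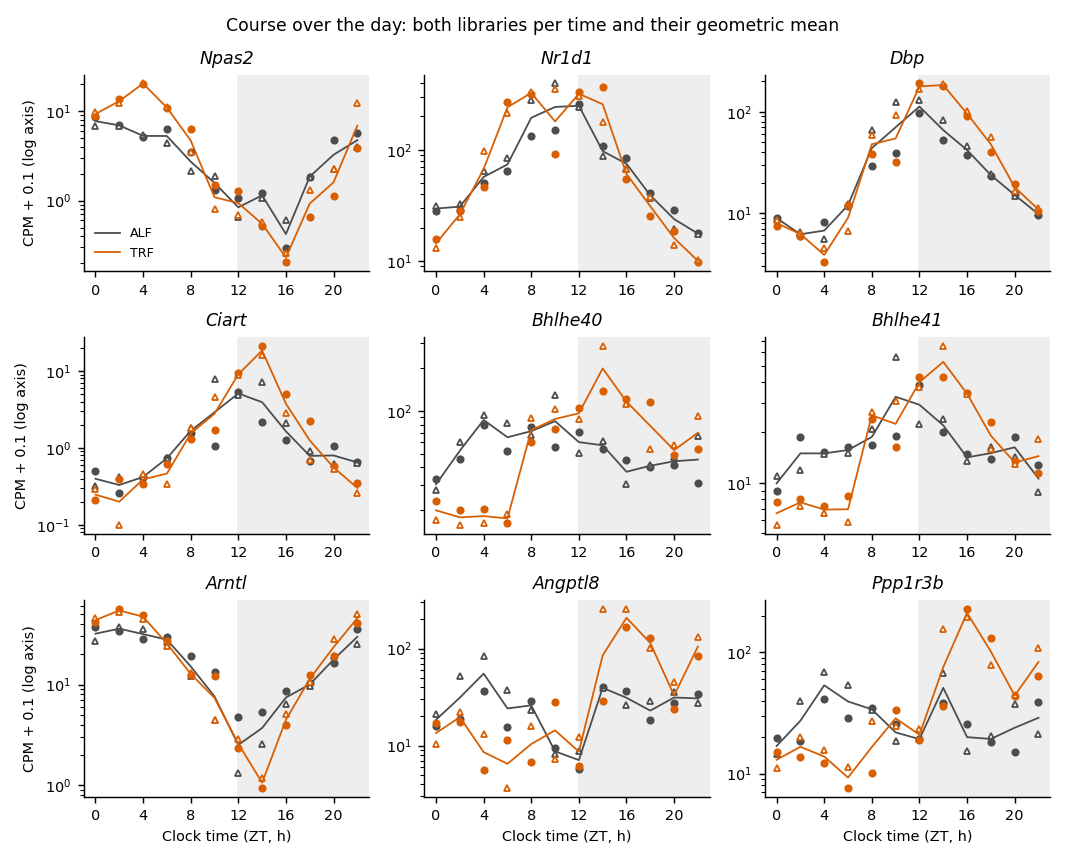
Level in CPM plus 0.1 (log axis) of 7 clock genes and of Angptl8 and Ppp1r3b against clock time in h, with both libraries per time (circle, replicate 1; triangle, replicate 2), their geometric mean (line) and the dark phase in grey. The TRF line of Bhlhe40 peaks near ZT14 and that of Npas2 near ZT4, and Angptl8 reaches 256.2 CPM in TRF in the hours with food, where ALF stays between 18.2 and 39.7 CPM.

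Promoters of 4 clock genes are shown because they hold the letters that clock factors are known to bind. Each is the stretch of 250 bases before the RefSeq start, 5′ to 3′ on the gene's strand (build GRCm38.p6). Capitals mark the E-box CACGTG, the core TAGGTCA of the ROR and REV-ERB element, or the D-box TTATGTAA or TTACGTAA, searched on both strands.
Ciart: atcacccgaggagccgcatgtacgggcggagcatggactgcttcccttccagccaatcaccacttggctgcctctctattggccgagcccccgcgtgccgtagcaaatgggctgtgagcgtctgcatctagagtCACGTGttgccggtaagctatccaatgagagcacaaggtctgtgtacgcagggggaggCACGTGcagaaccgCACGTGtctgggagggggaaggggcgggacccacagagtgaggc
Bhlhe41: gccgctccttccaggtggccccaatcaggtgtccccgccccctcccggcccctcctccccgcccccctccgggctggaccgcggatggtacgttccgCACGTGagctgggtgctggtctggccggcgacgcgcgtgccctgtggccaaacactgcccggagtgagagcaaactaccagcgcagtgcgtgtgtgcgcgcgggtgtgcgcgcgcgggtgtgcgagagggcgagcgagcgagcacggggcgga
Nfil3: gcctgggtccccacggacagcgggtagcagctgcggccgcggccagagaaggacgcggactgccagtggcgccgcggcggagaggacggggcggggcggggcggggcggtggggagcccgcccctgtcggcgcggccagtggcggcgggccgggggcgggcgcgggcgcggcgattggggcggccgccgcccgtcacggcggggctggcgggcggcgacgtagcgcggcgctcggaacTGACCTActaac
Per3: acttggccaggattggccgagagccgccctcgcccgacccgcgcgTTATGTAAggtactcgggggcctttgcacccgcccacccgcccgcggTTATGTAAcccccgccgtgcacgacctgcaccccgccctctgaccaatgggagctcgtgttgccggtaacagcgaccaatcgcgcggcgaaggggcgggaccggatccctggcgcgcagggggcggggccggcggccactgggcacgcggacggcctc
The Ciart promoter (chr3:95882229-95882478, minus strand) held 3 E-boxes, which began 116, 58 and 44 bases before the start. The Bhlhe41 promoter (chr6:145865421-145865670, minus strand) held 1, which began 153 bases before it. The Nfil3 promoter (chr13:52981040-52981289, minus strand) held the receptor core on the opposite strand, 12 to 6 bases before the start, and the Per3 promoter (chr4:151044666-151044915, minus strand) held 2 D-boxes, from 205 to 198 and from 158 to 151 bases before it. Of 21 core clock genes 17 had a promoter in the RefSeq table. An E-box was present in 5 of these 17, the receptor core in 1 and a D-box in 1. Over all 32851 promoters of the table the shares were 6.02%, 2.23% and 0.931%, and over the 10787 genes tested here that matched it they were 9.75%, 2.03% and 0.797%. These are matches of letters and say nothing of binding in these libraries.

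Of 21 fatty acid synthesis genes none was rhythmic in ALF and 15 were in TRF, and 8 differed. Of 20 genes of triglyceride synthesis and droplets 5 were rhythmic in ALF and 11 in TRF, and 5 differed. Without replicate 1 the counts in ALF and TRF were 5 and 6 for the first list and 8 and 3 for the second. Angptl8 had an amplitude of 0.54 ± 0.29 in ALF (edgeR adjusted p = 0.51) and 2.01 ± 0.29 with a peak at 17.9 h in TRF (difference, edgeR adjusted p = 0.00031), and Ppp1r3b had 0.34 ± 0.21 and 1.71 ± 0.21 with a peak at 17.1 h. Aacs peaked at 20 h in TRF with an amplitude of 1.10 ± 0.14 against 0.09 ± 0.14 in ALF, and Thrsp at 20.5 h with 1.27 ± 0.22 against 0.23 ± 0.22. Fasn reached 0.88 ± 0.18 in TRF and 0.22 ± 0.18 in ALF, a difference that did not pass (edgeR adjusted p = 0.098), and those of Acacb and Acaca passed (0.033 and 0.015) but not without the 5 libraries (0.072 and 0.073). Fdft1 peaked at 18.5 h in TRF with an amplitude of 0.74 ± 0.10 and at 9.0 h in ALF with 0.38 ± 0.10 (difference, edgeR adjusted p = 3.6e-05). Pdk4, which blocks the use of pyruvate in a fast, peaked at 4.7 ± 0.6 h in TRF with an amplitude of 1.01 ± 0.16 against 0.14 ± 0.16 in ALF (edgeR adjusted p = 0.0059), and Txnip, an inhibitor of glucose uptake, peaked at 5.4 ± 0.9 h. The TRF peaks of Angptl8, Ppp1r3b, Aacs and Thrsp lay in the hours with food and those of Pdk4 and Txnip in the hours without it.

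Rhythms in further lists are read against the 12.2% of all genes that differed. Ribosome biogenesis had 2 rhythmic genes in ALF and 12 in TRF of 20, and 9 differed. Gnl3 peaked at 16.4 h and Nop56 at 17.3 h in TRF, with amplitudes of 0.38 ± 0.06 and 0.29 ± 0.06. Cytosolic heat shock genes were rhythmic in 6 of 17 cases in ALF and 14 in TRF, and 3 differed (1 and 0 without replicates 1 and 2), a share near that of all genes. Dnaja1 reached 0.75 ± 0.09 with a peak at 18.6 h in TRF against 0.22 ± 0.09 in ALF. Interferon-stimulated genes were rhythmic in 2 of 24 cases in ALF and 14 in TRF, and 10 differed, with Ifit3 at a peak of 18.7 h in TRF. Cldn5, a protein of endothelial junctions, peaked at 4.0 h in TRF with an amplitude of 0.97 ± 0.13 against 0.41 ± 0.13 in ALF (edgeR adjusted p = 0.015). Acsl1, which activates fatty acids for use, peaked at 12.5 h in TRF with 0.58 ± 0.10 against 0.14 ± 0.10 in ALF (edgeR adjusted p = 0.017).

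Several of the largest differences in rhythm rested on the libraries that stood apart. The distance between the fitted rhythms of the groups was 3.26 for Gpr50, 2.71 for Tph2, 2.32 for Ubd, 2.19 for Itgad and 1.8 for Mmp12 on the log2 scale, each past the test with all libraries. Without the 5 libraries none of these passed (edgeR adjusted p = 0.49, 0.62, 0.26, 0.51 and 0.34). The count of proliferation genes with a differing rhythm went from 11 of 20 to 0. Genes of glands and epithelia formed another such set. Cuzd1, which stood at 2747 CPM on the scale shared by both depots in the library labelled TRF ZT6 replicate 2, had a distance of 2.94 (edgeR adjusted p = 0.028, and 0.16 without the 5), and Ehf, an epithelial transcription factor, 2.41 (0.0024, and 0.096 without the 5). Prom2 had a distance of 2.43 and was too low to be tested without the 5 libraries. Kcnk1, a potassium channel, and Ggt1, a transferase of glutathione breakdown, passed in both settings (2.92 and 2.66 with all libraries, edgeR adjusted p = 0.046 and 0.022 without the 5). Both were low in most libraries: the medians by group and window were at most 2.62 CPM for Kcnk1 and 2.14 CPM for Ggt1. Their ALF maxima in the hours with food were 156.3 and 220.4 CPM.

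The same comparison was set beside inguinal fat to see where the epididymal depot differed. In a joint fit of 15076 genes 32.6% had a more positive and 26.4% a more negative feeding difference in epididymal than in inguinal fat. Those are 4914 and 3978 genes, and without replicate 1 the total fell from 8892 to 2588. The balance of the 2 directions moved with the setting: it was 4498 and 4300 with the size factors of DESeq2, 4553 and 4471 by DESeq2, 4046 and 4264 without ZT6, 4421 and 4580 without ZT8, and 1139 and 1449 without replicate 1. The joint fit treats same-numbered libraries of the 2 depots as independent, given depot and clock time. Their scores on the first component of each depot had a Pearson correlation of 0.588 over the 24 ALF pairs (permutation p = 0.0024). Over the 24 TRF pairs it was 0.051 (permutation p = 0.8), and 0.712 without the 2 farthest. The permutations did not keep clock time fixed, so shared clock time and dependence of same-numbered libraries cannot be told apart. Independence within clock time was not tested. Without the 7 inguinal ALF libraries nearest to the epididymal mean 7469 genes differed between the depots, 4126 in the positive and 3343 in the negative direction. All 18 adipocyte markers were more positive in the epididymal depot: the list median was 0.45 there and -0.33 in inguinal fat. Adipoq differed by 0.45 and -0.54 in the 2 depots (difference 0.98 ± 0.16, edgeR adjusted p = 2.6e-07), Plin1 by 0.54 and -0.71 (1.25 ± 0.16), and Lep by -1.34 and -2.76 (1.42 ± 0.44). Branched-chain amino acid breakdown was more positive in 20 of 22 cases, with list medians of 0.52 and -0.03, and endothelium in 13 of 15, with medians of 0.29 and -0.39.

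Most immune lists went the other way. General macrophage markers had a median of -1.07 in epididymal and 0.34 in inguinal fat, and 13 of 14 were more negative in the epididymal depot. Lipid-associated macrophage genes had medians of -1.88 and -0.17, with 13 of 19 more negative and 2 more positive in the epididymal depot. In inguinal fat 4 of these 19 rose and 7 fell. Resident macrophage genes were close, with medians of 0.11 and 0.18. Lyz2, the macrophage lysozyme, fell in the epididymal depot and rose in the inguinal one (-1.22 and 0.63, difference -1.86 ± 0.21, edgeR adjusted p = 2.5e-10), and Cd74 did the same (-1.02 and 0.50, difference -1.51 ± 0.18). Chemokines and cytokines were more negative in 22 of 25 cases (medians -1.42 and 0.48) and all 20 proliferation genes were (medians -1.56 and 0.15). T, B and NK cell genes were more negative in 20 of 22 cases, with medians of -0.17 and 1.30, and all 22 rose in inguinal fat. Markers of lymph node stroma rose beside them in inguinal fat, in 5 of 5 cases with a median of 1.41, and had a median of 0.83 in epididymal fat. The part of lymph node tissue in the depot differences of the immune lists, lymphocyte and other, was not tested. The matrix and fatty acid synthesis lists were closer: medians were -0.63 and -0.58 for the matrix, and 0.72 and 0.34 for fatty acid synthesis. The Acacb difference between the depots was 0.21 ± 0.34 and that of Fasn 0.30 ± 0.24, neither past the test (edgeR adjusted p = 0.61 and 0.29). The single genes that stood farthest apart were Trdn (-3.82 in epididymal and 1.87 in inguinal fat), Rgs1 (-3.63 and 0.73), Il7r, the interleukin 7 receptor (-3.03 and 1.10), and Cd72, a receptor of B cells (-2.28 and 1.26). On the positive side stood Serpina3b (1.24 and -1.52), Sez6l (-0.71 and -3.80), Gm9696 (-1.43 and -4.66) and Rnase2a (-2.79 and -6.60), the last a member of a family of close copies. Trdn encodes a muscle protein, and 12 of 15 skeletal muscle genes rose in inguinal fat. The medians of that list were 0.69 in epididymal and 2.56 in inguinal fat. The part of muscle RNA in the Trdn difference was not tested.

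**Figure D5:**
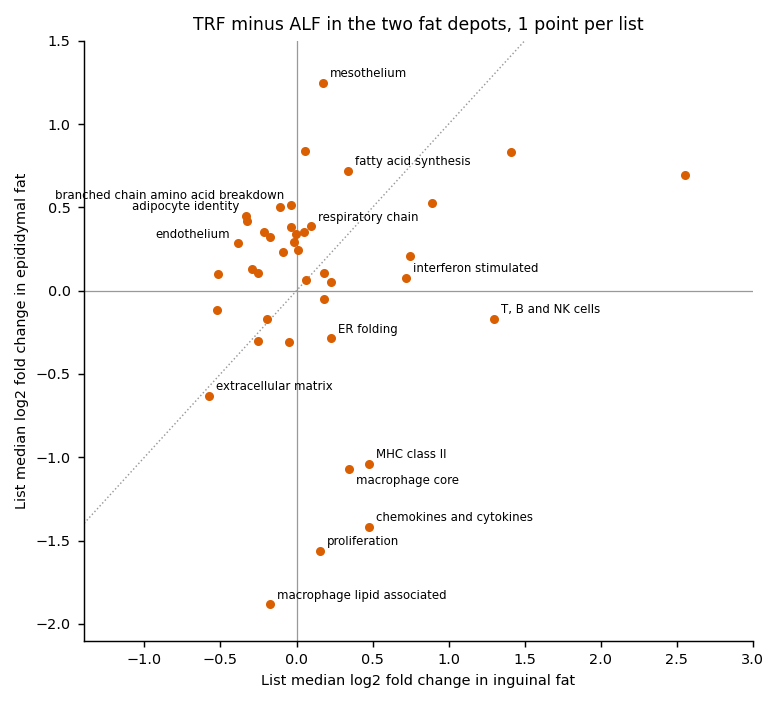
Median log2 difference, TRF minus ALF, of each gene list in epididymal fat (vertical) against inguinal fat (horizontal), 1 point per list with at least 5 genes in the joint fit, and the line of equal values dotted. Skeletal muscle lies farthest right, at 2.56. The general and lipid-associated macrophage, chemokine, MHC class II and proliferation lists lie below 0 in epididymal fat. In inguinal fat they lie near or above 0, for example -1.07 and 0.34 for general macrophage markers in the 2 depots. Resident macrophage genes lie at 0.11 and 0.18.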

How the data were processed

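Epididymal fat libraries were sequenced from RNA of both feeding groups at 12 clock times. The deposited table holds estimated counts per gene, and the submitters' processing notes name CASAVA 1.8, FastQC 0.11.8, STAR 2.5.3a, HOMER 4.10 and the build GRCm38 (mm10) without further detail. Of the epididymal values 30.89% were not whole numbers, and all were rounded before use. Whether a column pools all sequencing runs of a library is not given in the sources used here. Of 24537 rows, 26 had gene names turned into dates, and 4 with a repeated name were dropped, which left 24533. The other 939 columns, apart from the epididymal and inguinal ones, were not used.

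Genes passing filterByExpr were fitted with edgeR 4.0.16 (quasi-likelihood test, TMM scaling) in R 4.3.3, with clock time as a factor, or, for rhythms, with separate 24-h cosine and sine terms for ALF and TRF. Benjamini-Hochberg adjustment ran over all genes tested, with a threshold of 0.05. Amplitudes and peak times came from limma 3.58.1 on log2 CPM with a prior count of 2, and their standard errors from the delta method. The joint fit held both depots with clock time by depot as a factor and treated same-numbered libraries of the 2 depots as independent. CPM follow TMM scaling and are not per length, so levels of different genes were not compared. Total counts per library (10.2 to 36.5 M) set the precision of low genes, and the spread between libraries that of the others.

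Members and gene lists were chosen with earlier results of these data known. Named genes are a selection of the following: the 10 largest rises and falls among called genes that averaged 5 CPM or more and had one sign in both replicate numbers, up to 4 called genes and 1 that did not pass in each list, the 4 largest differences each way between windows and between depots, the core clock genes, and the 8 largest amplitudes and differences in rhythm. The alternatives were other scaling, no filter on low counts, DESeq2 1.42.0, a replicate block, a correction for GC content, the number of runs as a term, a harmonic of 12 h, and leaving out each replicate number, each clock time or single libraries. The 5 settings that leave out epididymal libraries that stood apart, and the principal component as a term, were chosen after seeing the data. GC content and gene coordinates were taken from GENCODE for GRCm38. Samples with the same replicate number were checked for shared deviations. The scripts were tested on simulated data. Results for some genes are not reported here.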

Additional observations from a re-analysis of the deposited data

Results flagged for a closer look

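Several feeding differences were themselves different between conditions by a test of that difference (edgeR, adjusted over all genes). Between the hours with food and the fasting hours, 261 genes had a more positive and 84 a more negative feeding difference. On the log2 scale these were 2.62 for Angptl8, 2.57 for Ppp1r3b, 1.88 for Usp2 and 1.77 for Axin2, and -1.47 for Nek2, -1.27 for Slc5a3, -1.16 for Ptger2 and -1.13 for Sgms2. The Sgms2 difference was smaller in size without the 5 libraries that stood apart.

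The 24-h rhythm differed between the feeding groups for 1726 genes. The largest distances between the fitted rhythms were 3.26 for Gpr50, 2.94 for Cuzd1, 2.92 for Kcnk1, 2.71 for Tph2, 2.66 for Ggt1, 2.43 for Prom2, 2.41 for Ehf and 2.32 for Ubd. Of these 8 only Kcnk1 and Ggt1 passed without the 5 libraries that stood apart. Both were low in most libraries, with medians of at most 2.62 and 2.14 CPM in any group and window.

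Between the depots, 4914 genes had a more positive and 3978 a more negative feeding difference in epididymal than in inguinal fat. This balance moved with the setting, to 4498 and 4300 with the size factors of DESeq2 and to 1139 and 1449 without replicate 1. The differences were 3.81 for Rnase2a, 3.24 for Gm9696, 3.08 for Sez6l and 2.76 for Serpina3b, and -5.69 for Trdn, -4.36 for Rgs1, -4.13 for Il7r and -3.54 for Cd72.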

How the results depend on the processing

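Leaving out a replicate number changed the counts of called genes most. Without replicate 1 or replicate 2 the mean comparison gave 2464 to 7563 genes (8470 with all libraries), the window difference 0 to 4 (345), the rhythm 20 to 3099 in ALF (1403) and 1356 to 1410 in TRF (4433), the difference in rhythm 29 to 704 (1726) and the depot difference 2588 to 7921 (8892). The window counts of 0 and 4 stood beside 990 and 1637 genes at an unadjusted p under 0.05 in edgeR. The window count was 128, 199, 141, 526, 584, 75 and 58 without ZT4, ZT6, ZT8, ZT10, ZT14, ZT16 and ZT18. It was 140 with a covariate for runs per library, 204 without the 2 libraries with high epididymal RNA, 549 without ALF ZT14 replicate 2 and 630 by DESeq2. The ALF rhythm count was 931, 772, 665, 863 and 624 without ZT2, ZT4, ZT12, ZT18 and ZT20, 631 with run number as a covariate, 834 without all 5 libraries, 776 with the principal component as a term and 848 at an amplitude of at least 0.25. The difference in rhythm was called for 961, 1095, 955 and 1066 genes without ZT4, ZT12, ZT18 and ZT20. A minimum difference of 0.5 left 2845 genes in the mean comparison, and an amplitude of at least 0.25 left 2594 in the TRF rhythm. The median of the Schwann cell list was 0.207 with all libraries, 0.066 without replicate 1 and -0.01 without replicate 2. Fewer libraries or fewer genes enter the settings that leave some out. For the others the cause was not tested. Of the 96 selected genes called in the mean comparison, all 96 were called in every setting other than leaving out a replicate number, where 17 were lost without replicate 1 and 1 without replicate 2. The same held for 8 of 28 genes in the window comparison, 15 of 25 in the ALF rhythm, 43 of 57 in the TRF rhythm, 19 of 45 in the difference in rhythm and 21 of 23 between the depots.

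With the replicate block the counts were 8517, 356, 1427, 4419, 1776 and 8941 in the order above. Same-numbered libraries of the 2 feeding groups did not regularly deviate together: over 12 clock times the correlation ran from -0.376 to 0.676 with a median of -0.036, so the numbers were not treated as pairing.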

Other observations

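The first principal component of epididymal fat was set beside that of inguinal fat over libraries with the same feeding group, clock time and replicate number, which may or may not come from the same mice. In ALF (n = 24) Pearson's r was 0.588 (permutation p = 0.0024, adjusted p = 0.0048) and Spearman's rho 0.469 (permutation p = 0.022, adjusted p = 0.022), and r was 0.761 without the 2 libraries farthest from the median. In TRF (n = 24) r was 0.051 (permutation p = 0.8, adjusted p = 0.8) and rho 0.504 (permutation p = 0.013, adjusted p = 0.022), and r was 0.712 without the 2 farthest libraries. The 2 libraries were TRF ZT10 replicate 1 (-66.6 in epididymal and 66.5 in inguinal fat) and TRF ZT18 replicate 2 (9.25 and -9.41). TRF ZT18 replicate 2 was low in both depots, and TRF ZT10 replicate 1 was low in epididymal and high in inguinal fat. A value of r without TRF ZT10 replicate 1 alone was not computed, so the part of each library in the low r was not tested. Each p came from 100000 two-sided permutations, adjusted over the 2 groups. They ran over all 24 libraries of a group and not within clock time. Shared clock time and dependence of same-numbered libraries therefore cannot be told apart.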
